A study of Mus musculus with 11 samples.

Results

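The EGF family ligands, their receptors, and the neighbouring receptor and ligand pair Met and Hgf were followed across 11 bulk RNA-seq libraries. The set holds 10 of the 55487 listed genes: the ligands Btc, Areg, Ereg, Hbegf and Tgfa, the receptors Egfr, Erbb2, Erbb3 and Met, and the Met ligand Hgf. They were chosen by gene name, with earlier results of all 11 libraries known, so their values in every comparison are given as a description.

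The libraries come from tumours of MC38, a mouse colon carcinoma line that can be grafted into mice, carrying either a hairpin against Fgf21 (shFgf21) or a control hairpin (shNC, whose genotype is labelled WT). The design text describes T cells sorted from such tumours, and names the effect of FGF21, a secreted hormone, on CD8+ T cells as the question. There were 2 shFgf21 and 3 shNC sorted libraries (labelled T cell, immune cell), and 3 shFgf21 and 3 shNC tumour libraries (labelled MC38, mesenchymal cell). The genotype of the second shFgf21 sorted library is labelled FGF22 Knockdown, against FGF21 Knockdown for the other shFgf21 libraries. Each sorted library has a title made of more than one number, and no label says whether animals were pooled. The sources used here give neither strain and age of the mice nor the number of hairpins or clones. No label states that libraries of 1 group are from separate animals or cultures, so each p reflects spread among libraries that could be technical only.

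Total counts lay between 14944013 and 19099350 per library. Fgf21 itself had 0 counts in each shFgf21 tumour library and 0, 2 and 1 in the shNC tumour libraries, and 0 in all 5 sorted libraries, so the knockdown could not be checked at this depth. Levels are given as CPM (counts per library scaled to a common total, with TMM factors over all 11 libraries), which compare libraries within a gene, and as the deposited FPKM, which are per length and compare genes. The sorted libraries stood apart from their label. Summed over 8 T cell markers they held 295 to 353 CPM in the shFgf21 arm and 259 to 518 CPM in the shNC arm. Summed over 8 macrophage markers they held 14410 to 15087 CPM in the shFgf21 arm and 9086 to 11305 CPM in the shNC arm, without overlap between the arms, and all 8 macrophage markers were detected. Summed over 8 fibroblast markers they held 3572 to 4051 CPM in the shFgf21 arm and 3224 to 4111 CPM in the shNC arm. The tumour libraries held 32.5 to 37.9 CPM of macrophage markers in the shFgf21 arm and 33.0 to 45.0 CPM in the shNC arm. Their T cell markers summed to 0.916 to 1.37 CPM in the shFgf21 arm and 1.19 to 2.27 CPM in the shNC arm. Of the 8 T cell markers, 6 were detected in the shFgf21 arm and 5 in the shNC arm. Cd3e and Cd2, 2 defining T cell markers, had no count in either arm. The part of this makeup in the results below was not tested. In bulk libraries, fewer cells of a type and less RNA per cell cannot be told apart.

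EGF family ligands are made as membrane-anchored precursors that ADAM proteases release. They bind EGFR or its relatives, which pair up and phosphorylate each other; ERBB2 has no known ligand and serves as a preferred partner, whereas ERBB3 is a neuregulin receptor with little kinase activity. MET is the receptor for HGF, which mesenchymal cells secrete as an inactive precursor, and both receptor families feed the RAS and ERK relay. Carcinoma cells often carry these receptors, while macrophages and other stromal cells are known sources of several of the ligands.

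The promoter windows of Areg, Tgfa and Met are shown because these were the members whose tumour groups did not overlap in the knockdown comparison. RefSeq windows (GRCm38.p6) matched 7 of the 10 members, and each runs from 250 bases before to 50 bases after the annotated start. Capitals mark matches to 4 motifs, searched on both strands: the AP-1 motif TGANTCA, the cyclic AMP response element TGACGTCA, the GC box GGGCGG, and TATAAA, the TATA box. No match shown overlaps another.
Areg: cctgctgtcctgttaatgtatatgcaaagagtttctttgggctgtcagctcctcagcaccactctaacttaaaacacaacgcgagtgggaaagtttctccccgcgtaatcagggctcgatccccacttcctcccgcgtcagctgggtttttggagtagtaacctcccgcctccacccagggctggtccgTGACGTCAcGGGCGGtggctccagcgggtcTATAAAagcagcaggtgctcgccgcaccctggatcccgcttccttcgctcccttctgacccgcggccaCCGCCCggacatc
Tgfa: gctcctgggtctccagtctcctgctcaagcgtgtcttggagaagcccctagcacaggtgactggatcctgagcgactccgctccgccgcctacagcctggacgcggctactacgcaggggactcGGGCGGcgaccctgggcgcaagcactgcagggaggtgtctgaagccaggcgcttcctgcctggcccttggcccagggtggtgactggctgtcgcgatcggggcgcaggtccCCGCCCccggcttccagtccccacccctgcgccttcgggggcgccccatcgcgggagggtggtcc
Met: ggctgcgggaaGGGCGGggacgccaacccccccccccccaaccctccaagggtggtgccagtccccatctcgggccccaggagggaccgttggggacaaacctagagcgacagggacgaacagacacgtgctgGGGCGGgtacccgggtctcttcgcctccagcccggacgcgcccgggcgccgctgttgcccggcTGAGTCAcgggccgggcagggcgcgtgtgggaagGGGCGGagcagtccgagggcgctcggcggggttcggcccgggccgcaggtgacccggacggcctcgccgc
The Areg window (chr5:91139349-91139648, plus strand, GC content 59.3%) holds the response element at position -61, a GC box at -52 and another at 37, and TATAAA at -31, counted from 0 at the start site. The Tgfa window (chr6:86194972-86195271, plus strand, GC content 70.7%) holds GC boxes at -126 and -15. The Met window (chr6:17463707-17464006, plus strand, GC content 75.7%) holds an AP-1 match at -54 and GC boxes at -239, -117 and -20. The expression table lists Met from 17463800, which lies within this window and before its start site. The AP-1 match and the GC boxes at -117 and -20 lie after that listed start. Of all 32851 windows of this length, 1.79% hold the response element, 7.81% the AP-1 motif, 35.7% the GC box and 13.6% TATAAA. Among the 7 members with a window, Areg was the one with the response element or TATAAA, and Met the one with the AP-1 motif. A match is a description of letters and not a site. Ereg, Hbegf and Erbb3 have no entry.

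Of the ligand genes, 3 lie side by side: on chromosome 5 (mm10 coordinates as the table lists them), Ereg, Areg and Btc are the 3 protein-coding genes of a stretch of 328373 bases, with 45952 bases between Ereg and Areg and 208828 bases between Areg and Btc. Met (chr6:17463800-17573980) and Tgfa (chr6:86195223-86275719) share chromosome 6. Erbb2 (chr11:98412470-98437716) overlaps Mien1, which had at most 339 counts, and Hgf (chr5:16553495-16620152) overlaps 2 listed transcripts with at most 20 counts. The sources used here do not give the counting strand, so reads of overlapping genes cannot be told apart.

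Ereg and Hbegf were the most abundant members per length in every group. Ereg encodes epiregulin, a broad EGFR and ERBB4 ligand, and Hbegf encodes heparin-binding EGF-like growth factor, which is also the diphtheria toxin receptor in humans. Ereg averaged 21.5 ± 5.63 FPKM in shFgf21 and 22.1 ± 2.04 FPKM in shNC sorted libraries, and 46.8 ± 4.82 FPKM in shFgf21 and 47.9 ± 34.8 FPKM in shNC tumour libraries (SD, n = 2, 3, 3 and 3). Hbegf followed with 20.6 ± 2.20 and 21.7 ± 2.67 FPKM in shFgf21 and shNC sorted libraries, and 31.9 ± 1.98 and 28.8 ± 8.91 FPKM in shFgf21 and shNC tumour libraries. The ranges of Ereg and Hbegf overlapped in every group but the shFgf21 tumours. The next place by mean differed by kind of sample, with Areg at 8.76 ± 1.56 and 14.4 ± 4.59 FPKM in shFgf21 and shNC sorted libraries, and Btc at 9.19 ± 1.99 and 7.34 ± 0.199 FPKM in shFgf21 and shNC tumour libraries. In shNC tumours the Btc range lay within those of Erbb2 (4.72 to 8.34 FPKM) and Areg (2.93 to 10.6 FPKM). The Hbegf and Areg ranges overlapped in shNC sorted libraries. Tgfa, which encodes the EGFR ligand TGF-alpha, was the lowest of the EGF family ligands among the members in all 4 groups, at a mean of 0.0502 to 0.200 FPKM.

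Erbb2 was the most abundant receptor in every group, and Met came next. Erbb2 averaged 2.95 ± 0.143 and 3.37 ± 0.438 FPKM in shFgf21 and shNC sorted libraries, and 5.49 ± 0.0761 and 6.49 ± 1.81 FPKM in shFgf21 and shNC tumour libraries. Egfr, the receptor that the ligands bind directly, was at 0.241 to 0.351 FPKM and Erbb3 at 0.376 to 0.632 FPKM on average. The Egfr and Erbb3 ranges overlapped within both tumour groups and did not overlap within either sorted group. Summed over the 5 ligands the levels were 53.6 ± 6.72 and 61.5 ± 6.09 FPKM in shFgf21 and shNC sorted libraries, and 89.8 ± 3.49 and 89.9 ± 44.0 FPKM in shFgf21 and shNC tumour libraries. Summed over the 4 receptors they were 5.31 ± 0.386 and 6.24 ± 0.170 FPKM in shFgf21 and shNC sorted libraries, and 9.49 ± 0.696 and 8.80 ± 1.77 FPKM in shFgf21 and shNC tumour libraries.

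**Figure D1:**
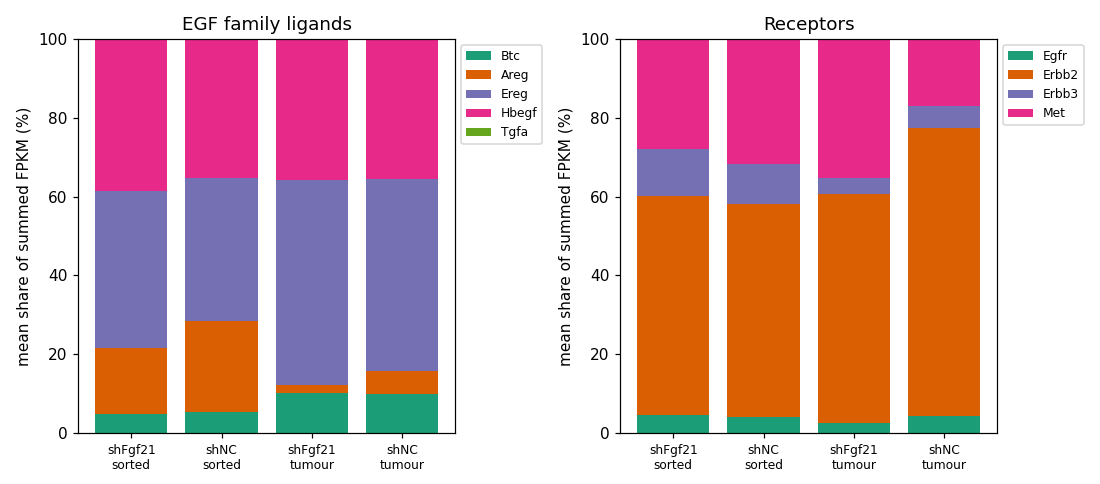
Mean share of each gene (vertical axis, percent) in the summed FPKM of the 5 EGF family ligands (left) and the 4 receptors (right), for the 4 groups. Met made up 35.3% of the receptor sum in shFgf21 tumours and 17.1% in shNC tumours, and Areg made up 16.7% and 23.2% of the ligand sum in shFgf21 and shNC sorted libraries.

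In tumour libraries, Met was the one member that was higher with the Fgf21 hairpin in every library. Met had 31.0, 44.4 and 35.9 CPM in the shFgf21 tumour libraries, against 17.0, 18.7 and 12.9 CPM in the shNC tumour libraries. All 3 shFgf21 libraries lay above all 3 shNC libraries, and the fitted log2 fold change was 1.21 ± 0.20 (SE), a fold of 2.31. With edgeR's quasi-likelihood test over 14950 genes the adjusted p was 0.139, which misses the threshold of 0.05. The call depended on the method: DESeq2 gave an adjusted p of 7.1e-05, and one edgeR fit over all 4 groups gave 0.0418. Leaving out each library in turn kept the log2 fold change between 1.06 and 1.33, with adjusted p between 0.164 and 0.599. As a share of the receptor sum, Met made up 35.3 ± 4.36% in shFgf21 tumours and 17.1 ± 3.32% in shNC tumours, while Erbb2 made up 58.1 ± 4.73% in shFgf21 tumours and 72.9 ± 6.99% in shNC tumours (SD, n = 3 each).

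Areg and Tgfa were lower in every shFgf21 tumour library than in any shNC tumour library. Areg, which encodes amphiregulin, an EGFR ligand of epithelial and immune cells, had 3.04, 1.54 and 1.60 CPM in shFgf21 tumours, against 12.5, 3.34 and 3.63 CPM in shNC tumours. One shNC library was far above the rest and the other 2 lay just above the shFgf21 libraries. The log2 fold change was -1.64 ± 0.56 (edgeR adjusted p = 0.670), and without shNC tumour replicate 1 it was -0.74. Tgfa had 6, 3 and 9 counts in shFgf21 tumours, against 24, 23 and 29 counts in shNC tumours, or 0.348 ± 0.166 and 1.38 ± 0.223 CPM. The groups were well apart at a level of few reads, with a log2 fold change of -1.94 ± 0.44 (edgeR adjusted p = 0.443).

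The other members overlapped between the tumour groups. Btc, which encodes betacellulin, an EGFR and ERBB4 ligand, had 50.8, 74.6 and 73.3 CPM in shFgf21 tumours, against 53.3, 51.5 and 53.1 CPM in shNC tumours. Of the shFgf21 libraries 2 were high and 1 was at the shNC level. Ereg had 189, 202 and 162 CPM in shFgf21 tumours, against 342, 62.9 and 161 CPM in shNC tumours, so the shNC libraries spanned the shFgf21 range on both sides. Hbegf lay between 161 and 187 CPM in shFgf21 tumours and between 103 and 194 CPM in shNC tumours. Egfr had 2.41, 3.19 and 3.21 CPM in shFgf21 tumours, against 7.08, 2.70 and 2.54 CPM in shNC tumours, again with 1 high shNC library. Erbb2 was between 34.6 and 36.1 CPM in shFgf21 tumours and between 31.0 and 52.8 CPM in shNC tumours, and Erbb3 between 1.55 and 2.86 CPM and between 2.45 and 3.13 CPM. Hgf was near the detection limit, with 3, 6 and 5 counts in shFgf21 tumours and 21, 6 and 1 counts in shNC tumours, and did not pass the filter on low counts. The high shNC library of Areg, Ereg, Egfr and Hgf was the same one, replicate 1, which also had the highest sum of 5 endothelial markers, at 18.7 CPM. Its sums for macrophages (45.0 CPM), T cells (2.27 CPM), epithelial cells (6.82 CPM) and mast cells (0.520 CPM) were the highest of the tumour libraries too. Its sums for fibroblasts, neutrophils, dendritic cells, NK and innate lymphoid cells and B cells were not. The endothelial sum moved with the arm, at 4.01 to 4.85 CPM in shFgf21 tumours and 5.12 to 18.7 CPM in shNC tumours, without overlap. All 3 endothelial markers tested had log2 fold changes below 0, as did 7 of 8 fibroblast markers, whose sum was 4254 to 5706 CPM in shFgf21 and 5638 to 5809 CPM in shNC tumours; 0 of these passed. The part of these cells in the levels of Areg, Tgfa and the other members was not tested.

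Of the 9 members tested in tumours, 0 passed the adjusted p of 0.05 with edgeR, where 0.0334% of all genes passed. DESeq2 called 1, Met, but it also called many more genes of these libraries than edgeR did. An unadjusted p under 0.05 was reached by 3 of the 9, against 6.22% of all genes. The groups did not overlap for the same 3, against 11.7% of all genes. Since earlier results of these libraries were known when the members were chosen, these counts carry no test.

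**Figure D2:**
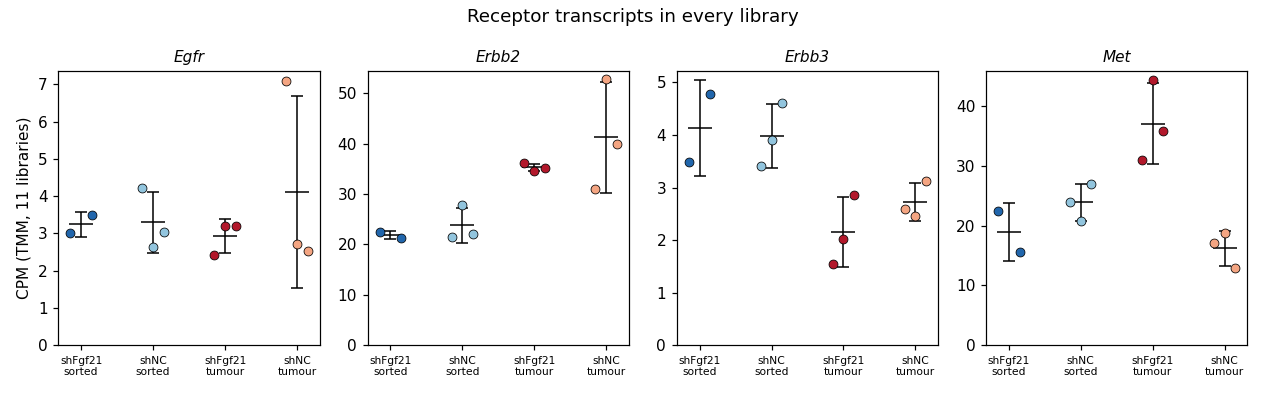
CPM (vertical axes, scaled over 11 libraries) of the 4 receptor genes in each library of the 4 groups, with the mean (long bar) and SD. Met lies between 31.0 and 44.4 CPM in shFgf21 tumours, above the 12.9 to 18.7 CPM of shNC tumours, while the sorted groups overlap.

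In sorted libraries the knockdown difference of Met was not seen in that direction, and Areg was lower with the Fgf21 hairpin as in tumours. Met had 22.4 and 15.6 CPM in the shFgf21 sorted libraries, against 24.1, 20.8 and 26.9 CPM in the shNC sorted libraries. The groups overlapped, with a log2 fold change of -0.35 ± 0.19. Areg had 10.1 and 13.2 CPM in shFgf21 sorted libraries, against 15.8, 25.3 and 14.0 CPM in shNC sorted libraries. Both shFgf21 libraries lay below all 3 shNC libraries, the nearest pair being 13.2 and 14.0 CPM, with a log2 fold change of -0.66 ± 0.27 (edgeR adjusted p = 0.423). Without shNC sorted replicate 2 it was -0.37.

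Hgf, by contrast, was slightly higher, with 11.9 and 14.4 CPM in shFgf21 sorted libraries, against 8.35, 10.5 and 11.9 CPM in shNC sorted libraries. Its log2 fold change was 0.35 ± 0.19, and the lower shFgf21 value and the highest shNC value were equal to 3 digits. Btc had 24.2 and 19.9 CPM in shFgf21 sorted libraries, against 24.2, 24.0 and 28.8 CPM in shNC sorted libraries, an overlap with a log2 fold change of -0.24 ± 0.15. Ereg (80.1 and 115 CPM, against 89.5 to 103 CPM), Hbegf (120 and 137 CPM, against 112 to 143 CPM) and Erbb2 (21.2 and 22.4 CPM, against 21.5 to 27.8 CPM) overlapped between shFgf21 and shNC sorted libraries. Egfr and Erbb3 had log2 fold changes of -0.04 ± 0.29 and 0.04 ± 0.25. Tgfa had 11 and 3 counts in shFgf21 sorted libraries and 8, 8 and 17 counts in shNC sorted libraries, too few to compare. Of the 10 members tested, 0 passed the adjusted p of 0.05 with edgeR or with DESeq2, where edgeR called 0.079% of all genes. An unadjusted p under 0.05 was reached by 1, against 11.2% of all genes, and the groups did not overlap for 2 (Hgf higher, Areg lower), against 29.7% of all genes. Without shFgf21 sorted replicate 2, the library labelled FGF22 Knockdown, the log2 fold changes were -0.11 for Met, -0.87 for Areg, 0.21 for Hgf and -0.097 for Btc. Summed markers of 5 cell types differed between the arms in these libraries without overlap, where 29.7% of single genes did not overlap. The sums for T cells, fibroblasts, endothelial cells, mast cells and B cells overlapped. Macrophage markers were higher in shFgf21 sorted libraries, as given above. The sum for NK and innate lymphoid cells was also higher (164 to 165 CPM in shFgf21 and 111 to 159 CPM in shNC sorted libraries). That sum did not follow most of its 5 markers: 2 had log2 fold changes above 0 and 3 below, with a median of -0.86. Lower were the sums for epithelial cells (16.4 to 18.6 CPM in shFgf21 and 30.0 to 43.9 CPM in shNC), neutrophils (61.4 to 69.8 CPM in shFgf21 and 75.9 to 152 CPM in shNC) and dendritic cells (87.9 to 105 CPM in shFgf21 and 111 to 120 CPM in shNC). In shFgf21 sorted libraries the epithelial sum was mostly Cdh1, at a mean of 16.6 CPM, and Krt8 had no count. Of the 5 epithelial markers 2 could be tested, both with log2 fold changes below 0, and 0 passed. The dendritic cell sum was mostly Itgax, at a mean of 70.3 CPM in shFgf21 and 87.3 CPM in shNC sorted libraries, with overlap. Of the 5 dendritic cell markers 4 had log2 fold changes below 0 and 1 above, with a median of -0.10. The part of these cell types in the levels of Hgf and Areg was not tested.

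**Figure D3:**
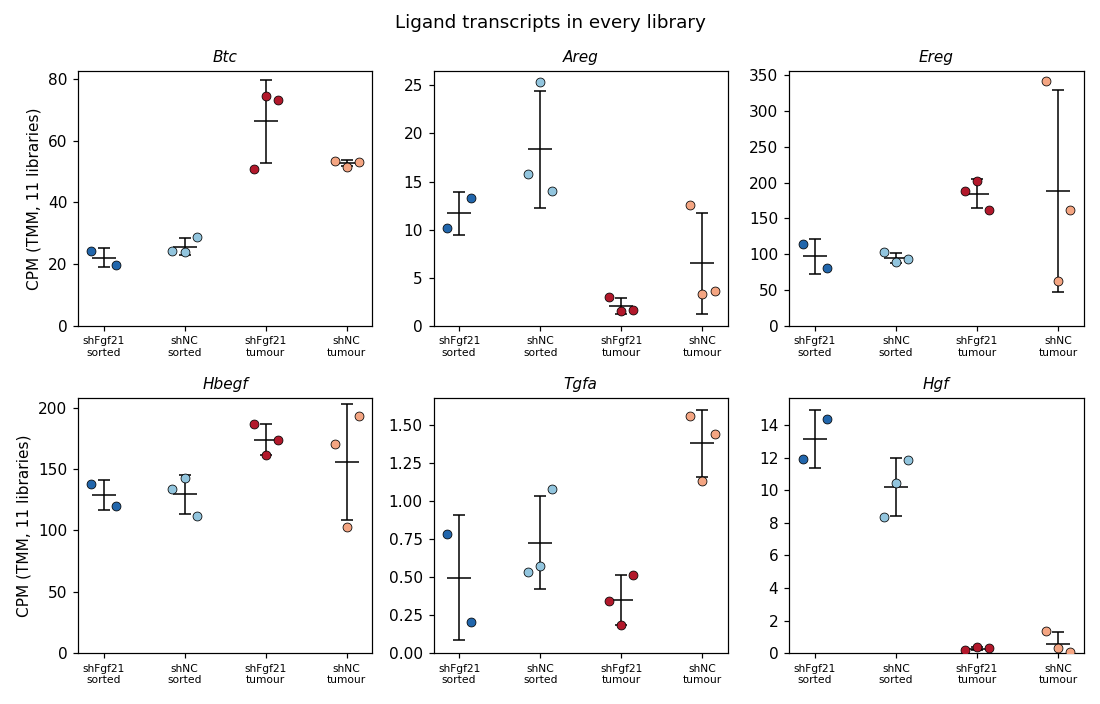
CPM (vertical axes, scaled over 11 libraries) of the 6 ligand genes in each library of the 4 groups, with the mean (long bar) and SD; for Hgf in shNC tumours the lower SD bar ends at 0. Areg is at 10.1 to 13.2 CPM in shFgf21 and 14.0 to 25.3 CPM in shNC sorted libraries, and at 1.54 to 3.04 CPM in shFgf21 and 3.34 to 12.5 CPM in shNC tumours.

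The difference between the 2 knockdown effects was tested directly, as the effect in sorted libraries minus that in tumour libraries. Met had the lowest p of the members, with -1.55 ± 0.30 on the log2 scale (edgeR adjusted p = 0.330), and Btc followed with -0.57 ± 0.24. With edgeR 0 of 10 members passed, where 0.00577% of 17327 genes passed, and 2 (Met and Btc) had an unadjusted p under 0.05, against 4.77% of all genes. DESeq2 called 1, Met, with an adjusted p of 0.00266, but it also called many more of all genes than edgeR did. Without the library labelled FGF22 Knockdown the differences were -1.32 for Met and -0.44 for Btc. Areg, lower in both kinds of sample, had a difference of 0.97 ± 0.72, and it was 0.093 without shNC tumour replicate 1.

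**Figure D4:**
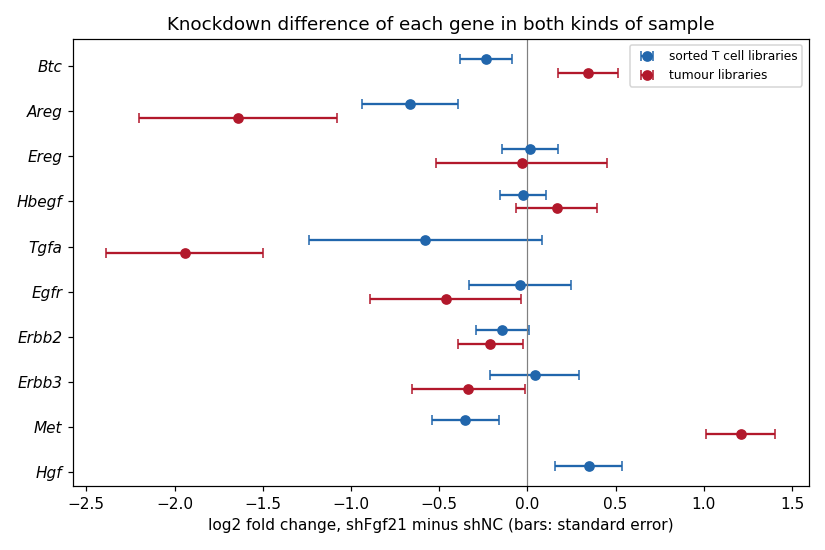
Fitted log2 fold change of each member, shFgf21 minus shNC (horizontal axis, bars SE), in sorted and in tumour libraries; Hgf was not tested in tumours. Met is at -0.35 in sorted and 1.21 in tumour libraries, and Areg is at -0.66 in sorted and -1.64 in tumour libraries.

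Between kinds of sample, Hgf and Areg were higher in sorted than in tumour libraries in both arms, and Btc and Erbb2 were lower. Hgf averaged 13.2 ± 1.77 CPM in shFgf21 sorted libraries, against 0.276 ± 0.0988 CPM in shFgf21 tumours, and 10.2 ± 1.78 CPM in shNC sorted libraries, against 0.570 ± 0.699 CPM in shNC tumours. The log2 differences, sorted minus tumour, were 5.53 ± 0.68 in the shFgf21 arm and 4.26 ± 0.60 in the shNC arm. Areg had differences of 2.48 ± 0.55 and 1.51 ± 0.47 in the shFgf21 and shNC arms. Btc was lower by 1.61 ± 0.19 and 1.04 ± 0.16 log2 units, and Erbb2 by 0.71 ± 0.20 and 0.80 ± 0.17 log2 units, in the shFgf21 and shNC arms. Met had opposite signs, -0.99 ± 0.22 in the shFgf21 arm and 0.56 ± 0.20 in the shNC arm.

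Of the 10 members, 6 passed in the shFgf21 arm (Areg, Hgf and Erbb3 higher; Btc, Erbb2 and Met lower), where 35.2% of all genes passed, and 5 passed in the shNC arm (Areg, Hgf and Met higher; Btc and Erbb2 lower), where 33.4% passed. Directions split as 21.6% of all genes higher and 13.6% lower in the shFgf21 arm, and 20.3% higher and 13.1% lower in the shNC arm. The calls depended on the fit and on single libraries. In the shFgf21 arm Erbb3 was not called without the filter on low counts (adjusted p = 0.0516) or with only the compared groups fitted (0.0613), and in that second fit Ereg (0.00515) and Hbegf (0.0323) were called, both lower. In the shNC arm Met was not called without the filter (0.0734), nor Areg with only the compared groups fitted (0.0600). Without shFgf21 sorted replicate 2, 3 members passed in the shFgf21 arm, with Erbb2 at -0.68, Erbb3 at 0.68 and Met at -0.75 no longer called. Erbb2 also lost its call without shFgf21 sorted replicate 1 (-0.75), and Erbb3 without shFgf21 tumour replicate 1 (0.74) or 2 (0.89). In the shNC arm, Met lost its call without shNC sorted replicate 1 or 3, shNC tumour replicate 1 or 6, or shFgf21 tumour replicate 3, at values between 0.43 and 0.61. Areg lost its call there without shNC sorted replicate 2 (1.22), shNC tumour replicate 2 (1.18) or shNC tumour replicate 6 (1.22), the last of which left 3 members passing. Without shNC tumour replicate 1, the high library for both, Areg in the shNC arm was at 2.41 and Hgf at 5.84. The macrophage marker sums given above differ between the kinds of sample far more than any member, and their part in these differences was not tested.

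The rest of the family was sparse. Of 7 further EGF family genes, 4 could be tested: the neuregulins Nrg1 and Nrg2, ligands of ERBB3 and ERBB4, the neuregulin Nrg4, and Egf. Epgn had at most 4 counts summed over a group and Erbb4, the fourth EGF receptor, had 1 count in all 11 libraries. Nrg1 averaged 14.6 ± 0.105 and 14.0 ± 2.11 CPM in shFgf21 and shNC sorted libraries, and 24.3 ± 1.76 and 21.3 ± 2.50 CPM in shFgf21 and shNC tumours. Nrg1 was lower in sorted than in tumour libraries, with a log2 difference, sorted minus tumour, of -0.75 ± 0.18 in the shFgf21 arm (adjusted p = 0.00604) and -0.60 ± 0.15 in the shNC arm (adjusted p = 0.00981; edgeR). Nrg2 and Nrg4 were higher in sorted libraries and passed in both arms, Nrg2 by 2.12 ± 0.54 in the shNC arm. All 4 tested genes passed in the shFgf21 arm (2 higher, 2 lower), where 35.2% of all genes did, and 3 in the shNC arm (2 higher, 1 lower), where 33.4% did. In the shNC arm Nrg1 lost its call without shNC sorted replicate 3 (-0.48), and Nrg4 without shNC sorted replicate 1 (0.92). In the knockdown comparisons 0 of 3 tested in tumours and 0 of 4 tested in sorted libraries passed with edgeR, with adjusted p of at least 0.908 and 0.393. The shares of all genes that passed were 0.0334% in tumours and 0.079% in sorted libraries.

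Of 10 listed genes of HGF activation, its inhibitors and the related MST1 pair, 7 could be tested between sorted and tumour libraries. Of these, 5 (Plau, St14, Hpn, Spint1 and Spint2) passed as higher in sorted libraries in both arms. Hpn and Spint2 were named after their values were seen. Plau, the urokinase protease, averaged 340 ± 24.8 and 331 ± 58.2 CPM in shFgf21 and shNC sorted libraries. Sorted minus tumour, it rose by 4.45 ± 0.48 log2 units in the shFgf21 arm and by 5.06 ± 0.48 in the shNC arm. St14, which encodes matriptase, and its inhibitor Spint1 rose by 6.65 ± 0.62 and 7.65 ± 0.54 log2 units in the shFgf21 arm and by 6.04 ± 0.54 and 6.05 ± 0.49 in the shNC arm. Over all genes 21.6% passed as higher in the shFgf21 arm and 20.3% in the shNC arm. No tested gene of this list passed as lower, where 13.6% of all genes did in the shFgf21 arm and 13.1% in the shNC arm. The median log2 difference was 4.45 in the shFgf21 arm and 5.06 in the shNC arm, against 0.00029 and -0.0098 over all genes. In the knockdown comparisons 0 of 1 passed in tumours, against 0.0334% of all genes, and 0 of 6 in sorted libraries, against 0.079%. Spint1 was at 25.4 ± 2.36 CPM in shFgf21 and 13.6 ± 5.37 CPM in shNC sorted libraries (log2 fold change 0.89 ± 0.31, adjusted p = 0.361). Hgfac, which encodes the HGF activator, had 0 counts in the shFgf21 sorted libraries and 11, 10 and 3 counts in the shNC sorted libraries, a difference that did not pass, and 3, 3 and 2 counts in shFgf21 and 0, 8 and 5 counts in shNC tumours.

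The proteases that release the ligands, ADAM family members and their partners, were tested in full (10 of 10). Adam17, the main sheddase of several EGF ligands, averaged 152 ± 4.99 and 121 ± 5.41 CPM in shFgf21 and shNC sorted libraries, and 77.6 ± 5.48 and 70.4 ± 8.73 CPM in shFgf21 and shNC tumours. Its knockdown difference in sorted libraries was 0.31 ± 0.09 (adjusted p = 0.295). Sorted minus tumour, 7 of 10 passed in the shFgf21 arm (5 higher, 2 lower) and 6 in the shNC arm (4 higher, 2 lower), where 35.2% and 33.4% of all genes passed in the shFgf21 and shNC arms. Adam8, a myeloid ADAM, rose by 7.09 ± 0.27 and 6.64 ± 0.26 log2 units in the shFgf21 and shNC arms. Timp3, an inhibitor of ADAM17, fell by 0.64 ± 0.18 and 0.89 ± 0.16 in the shFgf21 and shNC arms. Adam12 had 0.633 ± 0.348 CPM in shFgf21 tumours and 5.84 ± 6.56 CPM in shNC tumours (log2 fold change -3.18 ± 0.86, adjusted p = 0.570), and -1.68 without shNC tumour replicate 1. With DESeq2 its adjusted p in tumours was 0.00202.

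Downstream genes showed no called knockdown difference with edgeR, where 0.0334% of all genes passed in tumours and 0.079% in sorted libraries. Of the receptor brakes and ERK feedback genes 0 of 16 passed in tumours and 0 of 17 in sorted libraries. Dusp5, an ERK phosphatase, was at 272 ± 27.7 CPM in shFgf21 and 175 ± 66.4 CPM in shNC tumours, without overlap, as were 11.7% of all genes. Its log2 fold change was 0.64 ± 0.28 (adjusted p = 0.802), and 0.36 without shNC tumour replicate 2. Spred2, a RAS pathway inhibitor, had 101 ± 7.24 CPM in shFgf21 and 81.1 ± 5.35 CPM in shNC tumours (log2 fold change 0.33 ± 0.13, adjusted p = 0.773). Of the adaptors and relay kinases, 0 of 19 passed in each kind of sample. Of the 12 growth factor response genes 0 passed in either. Ccnd1, encoding cyclin D1, had log2 fold changes of 0.19 ± 0.09 in sorted libraries and 0.23 ± 0.13 in tumours, and Fosl1, encoding an AP-1 subunit, had 0.48 ± 0.12 (adjusted p = 0.247; DESeq2 gave 0.0446) in sorted libraries and 0.54 ± 0.31 in tumours. The tumour value of Fosl1 was 0.22 without shFgf21 tumour replicate 1, 0.30 without shNC tumour replicate 2 and 0.82 without shNC tumour replicate 1. Egr1, an immediate early gene, was at a mean of 3219 to 3781 CPM in the 4 groups. Sorted minus tumour, Junb, another AP-1 subunit, rose by 0.71 ± 0.17 log2 units in the shNC arm, while Ccnd1 fell by 0.52 ± 0.11 in the shFgf21 arm and by 0.50 ± 0.10 in the shNC arm. Of the 12 response genes, 6 passed in the shFgf21 arm (3 higher, 3 lower) and 6 in the shNC arm (2 higher, 4 lower). Of the 17 brakes 8 passed in the shFgf21 arm (3 higher, 5 lower) and 9 in the shNC arm (3 higher, 6 lower), and of the 19 adaptors and kinases 6 passed in the shFgf21 arm (2 higher, 4 lower) and 5 in the shNC arm (1 higher, 4 lower). Over all genes 35.2% passed in the shFgf21 arm and 33.4% in the shNC arm, and the counts of the adaptors and kinases were close to these shares.

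Over the 6 lists of pathway genes that are not members, the median log2 fold changes of the knockdown lay between -0.090 and 0.14 in sorted libraries, against -0.010 over all genes tested. In tumours the medians of 5 lists lay between 0.024 and 0.20, against -0.0071 over all genes tested. The HGF list had 1 gene tested there, Plau, at 0.63, which was 0.25 without shNC tumour replicate 2 and 1.36 without shNC tumour replicate 1. With edgeR an unadjusted p under 0.05 was reached in sorted libraries by 1 of 4 further ligands, 2 of 6 HGF activation genes, 4 of 10 sheddase genes, 3 of 17 brakes, 0 of 19 adaptors and kinases and 1 of 12 response genes. In tumours it was reached by 2 of 10 sheddase genes and 2 of 16 brakes, and by 0 of 3 further ligands, 0 of 1 HGF activation genes, 0 of 19 adaptors and kinases and 0 of 12 response genes. The share over all genes was 11.2% in sorted libraries and 6.22% in tumours.

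Genes whose profile over the 11 libraries was closest to each member were found by summing the absolute differences between their shares of CPM, over 9531 genes. The closest gene to Met was Papola (0.154), followed by Csf2 (0.174) and Clock (0.179). Areg had no close neighbour, its nearest being Thbs1 (0.238). The nearest to Hgf was Sdc3 (0.0491), to Erbb2 Cpt1c (0.0568), to Hbegf Atp10a (0.0639), to Btc Klra4 (0.0748), to Erbb3 Ube2q2 (0.0771), to Egfr Ccn3 (0.0952) and to Ereg Slco2a1 (0.141). Tgfa was too low to be compared.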

How the data were processed

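Total RNA was extracted with a commercial kit and made into RNA-seq libraries, per the labels' protocols. The deposited table holds raw counts and FPKM per gene and library; mm10 is the build, per the submitters' processing notes. Aligner, counter, annotation and strand setting: not given in the sources used here. FPKM values were made by the authors and are used as deposited, for comparing genes.

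Counts were tested with edgeR 4.0.16 (R 4.3.3): TMM scaling, filterByExpr, quasi-likelihood F-test, Benjamini-Hochberg adjustment over all genes tested, threshold 0.05. Each knockdown comparison used its own kind of sample; the difference between effects and the kind-of-sample contrasts used all 4 groups. SE was taken as the size of the log2 fold change over the root of its F statistic. The procedure was tested on simulated data. A floor of 3 counts corresponds to 0.157 to 0.201 CPM, for counting error only. Replicates were compared by chi-square, and no pair agreed within sampling noise. Alternatives were median-ratio size factors, no filter, DESeq2 1.42.0, another set of groups in the fit, a replicate block and leaving out each library.

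The members and gene lists were chosen with earlier results of these data known. Genes of the lists were named when they had the 2 smallest p-values in a knockdown comparison or the 3 highest mean CPM.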

Additional observations from a re-analysis of the deposited data

How the results depend on the processing

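Direction and call were recomputed for 627 member fold changes, and 573 kept both; 10 gained a call, 18 lost one and 26 changed sign. Counts of called genes moved most. Tumour calls numbered 5, against 109 with DESeq2 (1 member), 26 with all 4 groups in one fit (1 member), 131 with the title numbers as a replicate block, and 0 to 8 leaving out each library. Sorted calls numbered 13, against 1 without the filter, 216 with DESeq2, 1 with all 4 groups and 0 to 34 leaving out each library. The difference of effects gave 1 call, against 4 without the filter, 32 with DESeq2 (1 member) and 0 to 4 leaving out each library. Leaving out each library, calls between kinds of sample in the shFgf21 arm ranged from 3739 to 6652, members passing from 3 to 8 in the shFgf21 arm and from 3 to 6 in the shNC arm.

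Whether the title numbers pair the tumours was not settled. Only 2 are shared, with correlations of deviations of 0.143 and -0.235, too few and too unlike to decide it. Under that replicate block Ereg was at 0.43 in tumours, and Met at 1.08 (adjusted p = 0.106). Fold changes that changed sign when a library was left out had these ranges (log2). In tumours, Ereg -0.44 to 0.72, Egfr -0.70 to 0.18, Hbegf -0.065 to 0.38. In sorted libraries, Egfr -0.18 to 0.18, Erbb3 -0.20 to 0.25, Ereg -0.26 to 0.25, Hbegf -0.13 to 0.071, Tgfa -1.80 to 0.090. For the difference of effects, Egfr -0.20 to 0.68, Erbb2 -0.12 to 0.25, Ereg -0.69 to 0.47, Hbegf -0.38 to 0.053, Hgf -0.29 to 1.84. Between kinds of sample, Egfr -0.0012 to 0.23 and Tgfa -0.76 to 1.12 in the shFgf21 arm, and Egf -0.18 to 0.32, Egfr -0.55 to 0.35, Egr1 -0.13 to 0.37 and Mapk3 -0.12 to 0.045 in the shNC arm. The cause was not tested. Depth limits Tgfa and, in tumours, Hgf.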
